A study of Mus musculus with 24 samples.

Results

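The report describes 10 epithelial keratin genes in mouse prostate organoids and prostate tissue, out of 35519 genes in the annotation used to sum the deposited transcript values. The genes were listed by name, with earlier results of these data known, and all 10 passed the filter on low counts in each fit. The simple keratins were Krt8, Krt18, Krt19, Krt7 and Krt4, and the basal or stratified keratins were Krt5, Krt14, Krt15, Krt17 and Krt6a. RNA was sequenced from 24 libraries. The 18 organoid libraries came from anterior prostate lobes of 3-month-old mice, dissociated to single cells and grown in Matrigel. Their genotype labels were wild type (WT), Brca1+/- (HET) and Brca1-/- (KO), with 3 libraries for each label in medium with dihydrotestosterone (DHT), the potent androgen made from testosterone, and 3 in medium without it. All organoid groups shared a medium with EGF, Noggin, R-Spondin, the inhibitors A83-01 and Y27632, and B27. The 6 tissue libraries were made from RNA of undissociated anterior lobes, 2 for each genotype label. The part of Brca1 deleted, the driver of any recombinase, the age of the tissue donors and the number of animals behind each group are not given in the sources used here.

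Keratins are the intermediate filament proteins of epithelia. Each filament is built from pairs of 1 type I and 1 type II chain, so that the genes are known by their partners: Krt18 with Krt8 in simple epithelium and Krt14 with Krt5 in the basal layer of stratified epithelium. In the prostate, secretory luminal cells carry Krt8 and Krt18, basal cells carry Krt5 and Krt14, and Krt19 and Krt4 are known from luminal cells with progenitor features near the urethra. Krt15 marks basal cells in many epithelia, and Krt17 and Krt6a are keratins of wounded or hyperproliferative epithelium. In bulk RNA, fewer cells of a type and less RNA per cell cannot be told apart.

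The members lie in the 2 keratin clusters of the mouse genome (GRCm38). The type II genes Krt7, Krt6a, Krt5, Krt4 and Krt8 lie on chromosome 15 between bases 101411043 and 102032027, together with Krt18, the type I gene that stands beside Krt8. The type I genes Krt15, Krt19, Krt14 and Krt17 lie on chromosome 11 within 129 kb, between 1.23 and 1.35 Mb from Brca1. Promoter sequences are shown for the basal gene Krt5 and the simple gene Krt18, whose RefSeq starts lay within 36 bases of the annotated gene start, to set the sequence upstream of a basal gene beside that of a simple one. Both are 150 bases that end before the gene start, on the gene's own strand (RefSeq, GRCm38.p6), with capitals at matches to a p53-family half-site or to ATAAAA.

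Krt5, chr15:101712906-101713055, minus strand: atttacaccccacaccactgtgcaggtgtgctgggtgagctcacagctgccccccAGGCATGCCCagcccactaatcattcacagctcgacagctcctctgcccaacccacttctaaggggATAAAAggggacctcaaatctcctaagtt

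Krt18, chr15:102028030-102028179, plus strand: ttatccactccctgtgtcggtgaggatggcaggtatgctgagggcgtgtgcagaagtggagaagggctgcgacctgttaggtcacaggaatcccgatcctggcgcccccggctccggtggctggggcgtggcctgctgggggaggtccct

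The Krt5 window held 1 match to the p53-family half-site, which reads as a match on both strands, and 1 to ATAAAA, a form of the TATA box. Among 32851 mouse promoter windows of the same length, 4.01% held the half-site and 10.1% held ATAAAA on either strand. p63, the product of Trp63 and the defining basal cell factor, belongs to that family. Neither window held TGTTCT, the half-site of steroid receptors such as the androgen receptor, which 9.62% of windows held, nor TATAAA (7.57%), GGGCGG (28.6%) or TGANTCA (4.24%). A match is a string of letters and not a measured binding site, and ATAAAA was added to the search with the Krt5 sequence in view.

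Libraries held 11965815 to 58445041 estimated reads. The smallest, WT plus DHT replicate 1, had 28.1% of its reads on Lars2 against at most 0.954% in the other libraries, which lowers its values for all other genes once they are scaled to library size. Mitochondrial genes took 9.43% of reads in HET minus DHT replicate 1 and 10.01% in KO minus DHT replicate 1, against 1.60% to 5.39% elsewhere. Brca1 RNA did not follow the labels: in organoids with DHT the WT libraries had 2.88 to 3.05 TPM, a level of transcripts scaled to length and library, the HET libraries 3.13 to 3.95 and the KO libraries 2.04 to 3.02. WT, HET and KO therefore stand for the labels throughout, and each direction below is between libraries so labelled. Epithelial identity was plain in all 24 libraries, with Epcam at 448 TPM or more. Tissue WT replicate 2 stood apart: genes of the seminal vesicle, a gland that lies against the anterior lobe, summed to 178239 TPM there and to 62878 TPM in tissue HET replicate 1, against 7.91 to 27.3 in the other 4 tissue libraries and at most 0.181 in organoids. All 10 members had their lowest tissue level in tissue WT replicate 2.

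**Figure D1:**
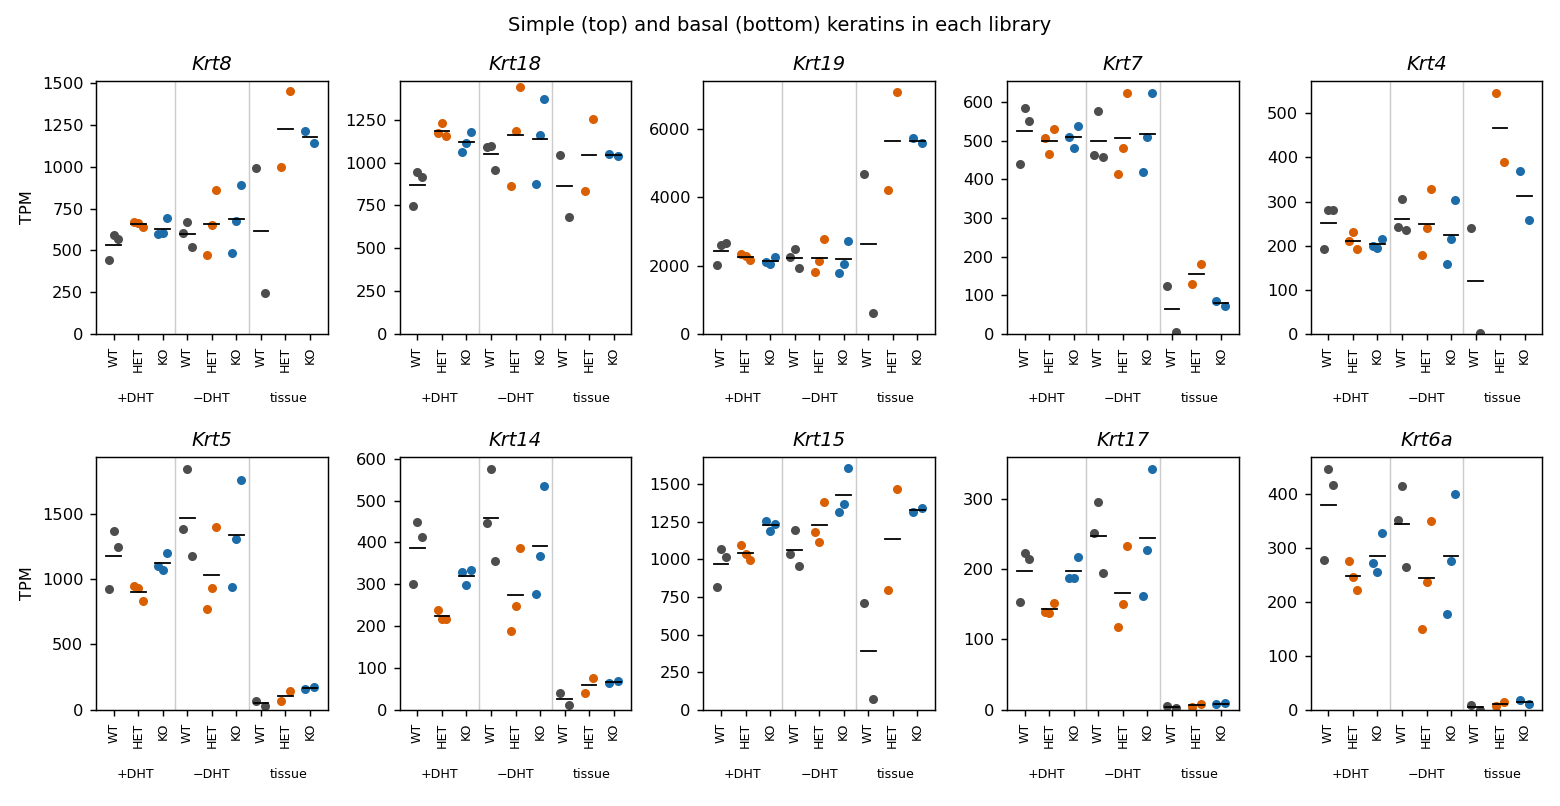
Level of each keratin in each library. The vertical axis is TPM from 0, each point is 1 library, the short bar is the group mean, and the groups run from organoids with DHT through organoids without DHT to tissue; Krt5, Krt14, Krt17 and Krt6a are near the axis in tissue, and Krt19 in 5 of the 6 tissue libraries is above all organoid libraries.

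Krt19, the smallest keratin, was the most abundant member per transcript length in both materials when all its transcripts, coding or not, were summed. Its median was 2206 TPM over 18 organoid libraries (range 1800.0 to 2776) and 5142 TPM over 6 tissue libraries (range 601 to 7085). It was above every other member in each library but tissue WT replicate 2, where Krt18 was higher. In organoids Krt15 (median 1149 TPM), Krt5 (1137) and Krt18 (1107) came next and were not separated: Krt15 was above Krt5 in 10 of 18 libraries and Krt5 above Krt18 in 11. Krt8 followed with a median of 622 TPM, and Krt7, a keratin of ducts and glands, with 508. The last were Krt14 (331), Krt6a (275), Krt4 (224) and Krt17 (191), whose ranges also overlapped from each to the next. Together the 10 genes held 0.614% to 1.06% of all organoid TPM.

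Tissue had another order. Krt8 (median 1070.2 TPM), Krt15 (1056) and Krt18 (1040.2) were level with one another below Krt19, and Krt8 exceeded Krt15 in 3 of 6 libraries. Krt4 came next with 313 TPM, then Krt5 with 107 and Krt7 with 105. Krt14 was at 51.8 TPM, Krt6a at 9.72 and Krt17 at 6.24. Tissue medians thus spanned a much wider range than organoid medians, from Krt17 to Krt19.

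The isoforms behind these sums differed between members. Krt8, Krt18, Krt4, Krt5 and Krt17 were each read from 1 coding transcript. Krt7 was not: its coding transcripts held a median of 43.2% of its estimated reads in organoids (range 40.5% to 50.5%), and a retained-intron transcript held 56.6% of its reads over all libraries. For Krt19 the coding share had a median of 68.8% in organoids and 65.5% in tissue. A processed transcript of 823 bases, against 1576 for the coding one, held 31.7% of its reads over all libraries. Being shorter, it adds more to the summed TPM for each read. The rank of Krt19, and the ratios that include it, were not computed from coding transcripts alone. Krt14 was 93.4% coding in organoids and 73.2% in tissue by median. Krt6b, a near-identical neighbour of Krt6a, received 238 reads in all against 366143 for Krt6a.

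The comparison of organoids with tissue asks which keratin state the culture holds. Organoids with DHT had far more of the basal keratins Krt5, Krt14, Krt17 and Krt6a and of the ductal keratin Krt7 than tissue, while Krt8, Krt19, Krt4 and Krt15 did not pass the test. Krt5, the type II keratin of basal cells, ran from 829.8 to 1365 TPM in the 9 organoid libraries with DHT and from 24.5 to 171 TPM in the 6 tissue libraries. That is a 13.7-fold higher level in organoids (log2 3.77, SE 0.251, edgeR adjusted p = 5.69e-08), with no overlap. Krt14, its type I partner, was at 216 to 448 TPM in organoids and 11.7 to 75.9 TPM in tissue (log2 3.12, SE 0.240, edgeR adjusted p = 2.03e-07).

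The wound keratins had the widest gaps. Krt17 was at 138 to 223 TPM in organoids and 1.81 to 9.29 TPM in tissue, a 38.1-fold difference (log2 5.25, SE 0.251, edgeR adjusted p = 3.81e-09). Krt6a was at 222 to 446 TPM in organoids and 0.286 to 17.4 TPM in tissue, a 42.9-fold difference (log2 5.42, SE 0.541, edgeR adjusted p = 1.89e-06). Both genes are background markers of epithelium in repair, and every organoid library was above every tissue library for each.

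Among the simple keratins, Krt7 rose from 5.23 to 180.0 TPM in tissue to 440.2 to 585 TPM in organoids (log2 2.38, SE 0.482, edgeR adjusted p = 0.000682). Krt18 was higher by log2 0.36 (SE 0.125, edgeR adjusted p = 0.0188), although its ranges overlapped, 745 to 1232 TPM in organoids and 684 to 1253 in tissue. Its partner Krt8 had a log2 difference of -0.38 (SE 0.211, edgeR adjusted p = 0.119), with 439.8 to 691 TPM in organoids. For Krt19 the log2 difference was -0.61 (SE 0.295, edgeR adjusted p = 0.0772), for Krt4 0.09 (SE 0.563, edgeR adjusted p = 0.892) and for Krt15 0.49 (SE 0.346, edgeR adjusted p = 0.215). In all, 6 of the 10 members were higher and none lower, while 75.4% of the 17626 genes tested passed in either direction, so the share of members called was below that of all genes.

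That count depends on tissue WT replicate 2 and tissue HET replicate 1. Without them, Krt8 was lower in organoids, at 0.619 times the tissue level (edgeR adjusted p = 6.50e-06), and Krt19 was lower as well (edgeR adjusted p = 2.61e-07), so that 8 members passed, and Krt4 took a log2 difference of -0.18. With all libraries 75.4% of genes had passed, and the share without these 2 is not given here. The rise of Krt18 did not pass in limma on log2(TPM + 0.1), at log2 0.11 (adjusted p = 0.452).

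**Figure D2:**
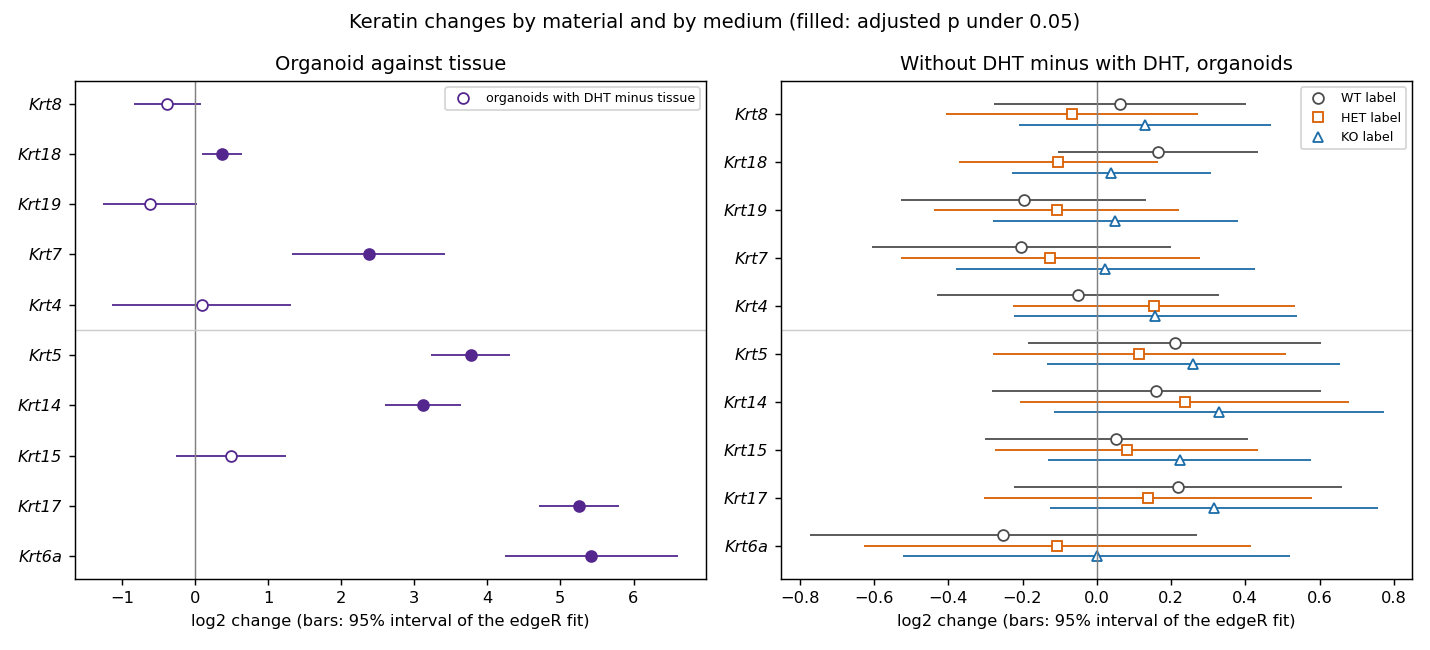
Log2 change of each keratin between organoids with DHT and tissue (left) and between organoids without and with DHT for each label (right). Symbols are edgeR estimates, bars their 95% intervals, and filled symbols passed an adjusted p of 0.05; the left panel has 6 filled symbols, all above 0, and the right panel has none.

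Other cells of the tissue moved with this comparison. Smooth muscle and fibroblast markers summed to 16.2 to 60.7 TPM in organoids and 662 to 3164 TPM in tissue, endothelial markers to 3.77 to 10.3 and 59.3 to 90.2 TPM, leukocyte markers to 57.1 to 122 and 193 to 1288 TPM, and urothelial markers to 13.0 to 37.2 and 114 to 542 TPM. The urothelial markers were not alike: Upk1a and Upk2 were higher in every tissue library than in any organoid library. Upk3a overlapped, at 1.94 to 17.9 TPM in organoids and 0.148 to 12.8 TPM in tissue. The part of these other cells in the keratin differences was not tested. Of all 17626 genes tested, 75.4% passed, with 5877 higher in organoids and 7418 lower. The basal markers other than keratins rose in organoids in 19 of 20 and fell in 1, with a median log2 difference of 2.80. They were led by the desmosomal cadherin Dsg3 (9.44), the hemidesmosome collagen Col17a1 (4.34), the laminin chain Lamb3 (3.78) and the receptor Fgfr3 (3.06). Squamous and cornified genes rose in 13 of 16 tested and fell in 1 (median 3.60), among them filaggrin, Flg (8.87), and the crosslinking enzyme Tgm1 (4.59). Luminal markers other than keratins rose in 2 of 17 and fell in 8 (median -1.09), a smaller share passing than the 75.4% of all genes. Dpp4 (-4.54) and the homeobox gene Hoxb13 (-2.37) were among the falls. Of 20 other keratins tested, 11 rose and 6 fell, led by Krt16, the usual partner of Krt6 chains (7.21), Krt80 (1.96), Krt39 (5.28) and Krt20 (5.76).

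Genes for proteins that hold keratin filaments were mostly higher in organoids. Of 20 anchors and crosslinkers, 18 were higher in organoids and 1 lower, with a median log2 difference of 1.30, and Pkp1, a desmosomal plaque protein, was higher by 4.90. Of 24 regulators of keratin genes, 14 were higher and 3 lower, a share of 70.8% that lies below the 75.4% of all genes, of which 5877 were higher and 7418 lower. Among the regulators, Trp63, the basal factor, had a log2 difference of 2.95, Notch1 of 2.21 and Gata2 of -5.02.

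The luminal-to-basal ratio, (Krt8 + Krt18) over (Krt5 + Krt14) in TPM, summarises the difference. It was 0.731 to 1.71 in the 18 organoid libraries and 9.13 to 25.7 in the 6 tissue libraries, with no overlap. The mean log2 difference between organoids with DHT and tissue was -3.57 with a pooled SD of 0.176. No test was made of this score. The paired genes shifted differently. Krt14 per Krt5 was 0.234 to 0.333 in organoids and 0.387 to 0.615 in tissue, a log2 difference of -0.78 (pooled SD 0.0998). Organoids thus had less summed Krt14 RNA for each Krt5 RNA. The Krt14 sum includes a shorter non-coding transcript, and the median coding share was 93.4% in organoids and 73.2% in tissue. The ratio was not taken from coding transcripts alone, so it does not give the balance of the chains. Krt18 per Krt8 was 1.54 to 1.86 in organoids and 0.839 to 1.06 in 5 tissue libraries, with 2.81 in tissue WT replicate 2. Summed type I over type II members was 1.48 to 2.10 in organoids and 3.38 to 4.96 in tissue.

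Among organoids, the genotype comparison asks how the label bears on luminal and basal keratins. With DHT, Krt18 rose and Krt14 fell in HET against WT organoids, and the other 8 members did not pass the test. This is 2 of 10 members, against 7.51% of the 15427 genes tested. Krt18, the type I chain of luminal cells, was at 745, 945 and 917 TPM in the WT libraries and 1175, 1232 and 1152 TPM in the HET libraries. All 3 HET libraries were above all 3 WT libraries, by log2 0.50 (SE 0.127, edgeR adjusted p = 0.0241).

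Krt14, the type I chain of basal cells, was at 301, 448 and 413 TPM in WT and 239, 217 and 216 TPM in HET libraries. The groups did not overlap, and the log2 change was -0.74 (SE 0.209, edgeR adjusted p = 0.0426). Its partner Krt5 was at 923, 1365 and 1242 TPM in WT and 949.5, 929 and 829.8 TPM in HET libraries. These groups overlapped in TPM through WT replicate 1, whose values its Lars2 share lowers. In counts scaled as for the test (CPM), the lowest WT library, at 1519, was above the highest HET library, at 1508. The log2 change was -0.34 (SE 0.186, edgeR adjusted p = 0.368). Krt8, the luminal type II chain, had a log2 change of 0.35 (SE 0.160, edgeR adjusted p = 0.253), Krt17 of -0.42 (SE 0.208, edgeR adjusted p = 0.303) and Krt6a of -0.57 (SE 0.246, edgeR adjusted p = 0.217). Krt19, Krt7, Krt4 and Krt15 lay between -0.20 and 0.11.

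Markers of other cell types also differed between labels with DHT. Smooth muscle and fibroblast markers summed to 32.5 to 36.8 TPM in WT, 17.4 to 21.9 TPM in HET and 54.2 to 60.7 TPM in KO libraries, with no overlap, and 1 to 5 of the 14 markers were at 0 in each library. Of the 9 tested, 2 fell in HET against WT, where 7.51% of all genes passed. They were the matrix proteoglycan Dcn (log2 -1.23, edgeR adjusted p = 0.000815) and vimentin, Vim (-1.08, edgeR adjusted p = 0.00186). In KO against WT, where 4.11% of all genes passed, 3 of the 9 rose. They were the smooth muscle genes Tagln (2.68, edgeR adjusted p = 0.000635) and Acta2 (2.46, edgeR adjusted p = 0.00148) and again Vim (0.97, edgeR adjusted p = 0.00437). Leukocyte markers summed to 64.0 to 72.2 TPM in WT, 80.4 to 92.4 TPM in HET and 57.1 to 68.4 TPM in KO libraries, and none of 5 tested passed in either comparison. Ptprc, which is on that list, was only at 0.017 to 0.136 TPM in these libraries. Nearly all of the sum thus came from other genes of the list, and it is no measure of leukocytes. The urothelial marker Upk1b fell in both (-0.99 in HET, -1.22 in KO), and Upk1a rose in HET (1.15). Without DHT the smooth muscle and fibroblast sum was 43.8 to 45.8 TPM in WT, 16.2 to 22.2 TPM in HET and 40.9 to 54.9 TPM in KO libraries. The part of these markers in the keratin differences was not tested.

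The calls of Krt18 and Krt14 in HET against WT with DHT were near the threshold. Leaving out any 1 of the 6 libraries lost the call for Krt18, whose change then ranged from 0.43 to 0.54, and leaving out 5 of the 6 lost it for Krt14, which ranged from -0.85 to -0.65. In limma on log2(TPM + 0.1) neither passed (adjusted p = 0.211 for Krt18 and 0.122 for Krt14).

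Without DHT, no member passed in HET against WT in edgeR, where 7.81% of genes did. At an unadjusted p under 0.05 there were 3 members, and 2908 of all 15427 genes. DESeq2 called 1 member, Krt14, and 1686 of all genes. Krt14 was at 446, 576 and 355 TPM in WT and 189, 248 and 386 TPM in HET libraries, so that HET replicate 3 lay within the WT range (log2 -0.66, SE 0.209, edgeR adjusted p = 0.0714). Krt18 was at 1091, 1099.8 and 957 TPM in WT and 864, 1184 and 1438 TPM in HET libraries (log2 0.23, SE 0.126, edgeR adjusted p = 0.370), with wide spread in HET. Krt5 and Krt17 had log2 changes of -0.43 and -0.50, the same sign as with DHT.

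**Figure D3:**
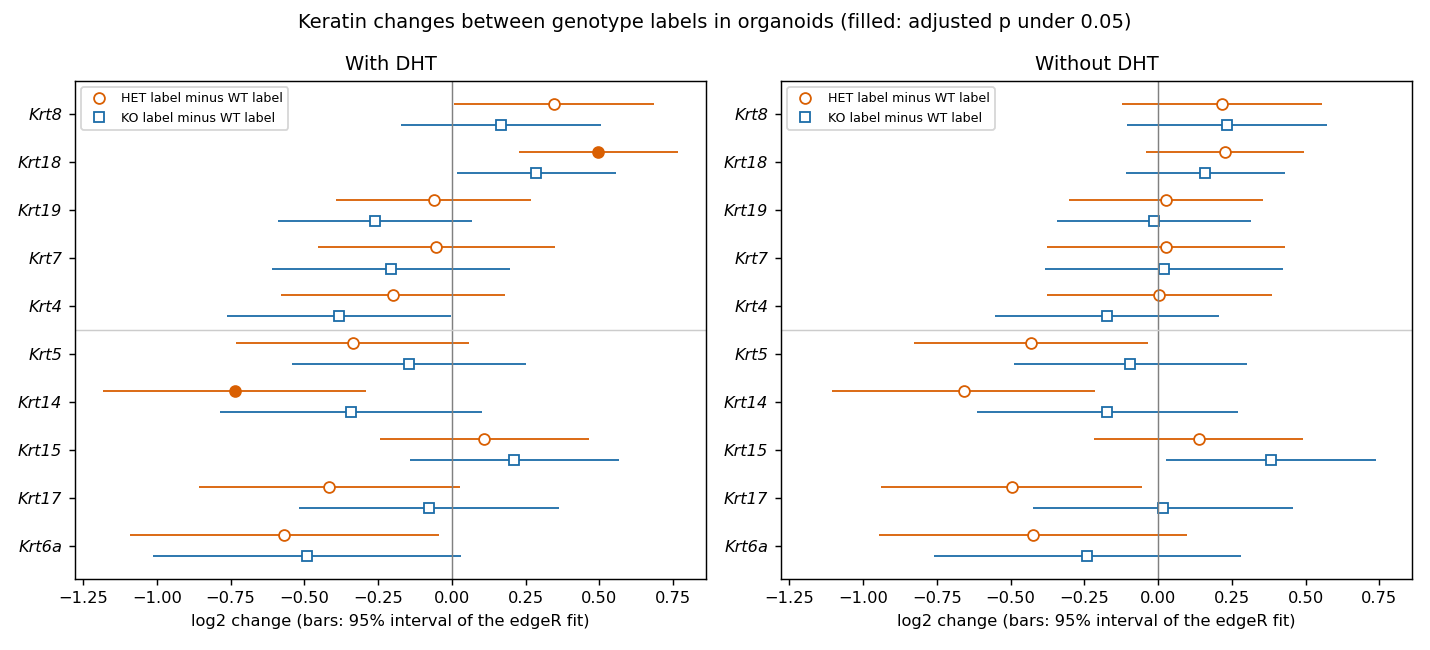
Log2 change of each keratin between genotype labels in organoids with DHT (left) and without DHT (right). Symbols are edgeR estimates for HET minus WT and KO minus WT, bars their 95% intervals, and filled symbols passed an adjusted p of 0.05; only Krt18 (0.50) and Krt14 (-0.74) in HET with DHT are filled.

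Averaged over both media, a contrast chosen after seeing the data, 3 members passed in HET against WT organoids, against 15.7% of genes. Krt18 was higher (log2 0.36, SE 0.0894, edgeR adjusted p = 0.0107), and Krt14 (log2 -0.70, SE 0.148, edgeR adjusted p = 0.00374) and Krt17 (log2 -0.46, SE 0.147, edgeR adjusted p = 0.0468) were lower. Krt5 (log2 -0.38, edgeR adjusted p = 0.0618) and Krt6a (log2 -0.50, edgeR adjusted p = 0.0678) missed the threshold. The basal members Krt5, Krt14, Krt17 and Krt6a thus all had negative estimates, and Krt15, which is also basal by name, had one of 0.12. Over all 18 organoid libraries, which include those of this contrast, Krt15 had a Spearman rho of 0.49 with Krt5, where Krt14 and Krt17 both had 0.97 and Krt6a 0.82. The difference between labels enters these values, so they are no separate evidence. The calls of Krt18 and Krt17 were lost in limma on log2(TPM + 0.1) (adjusted p = 0.185 and 0.0866), and that of Krt17 in 9 of 12 fits that each left out 1 library.

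KO against WT organoids gave no call among the members in edgeR, DESeq2 or limma in either single medium, where edgeR passed 4.11% of genes with DHT and 4.80% without. At an unadjusted p under 0.05 edgeR had 2 members with DHT and 1 without, and 2034 and 2288 of all 15427 genes. Krt14 was at 329, 299 and 334 TPM in KO libraries with DHT, above all HET libraries and overlapping WT in TPM (log2 -0.34 against WT, SE 0.209, edgeR adjusted p = 0.579). The overlap came through WT replicate 1, and in CPM the highest KO library (352) was below the lowest WT library (358). Krt18 was at 1063, 1114 and 1181 TPM, above all WT libraries (log2 0.29, SE 0.126, edgeR adjusted p = 0.331). Over both media, where 9.74% of genes passed, Krt15 had the largest positive estimate (log2 0.30, SE 0.118, edgeR adjusted p = 0.147) and no member passed. An unadjusted p under 0.05 was seen in 3 members and in 3273 of all genes. Limma called 1 member, Krt15, and DESeq2 none.

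KO against HET organoids also had no member past the threshold with edgeR, against 3.54% of genes with DHT, 2.92% without and 9.10% over both media. At an unadjusted p under 0.05 there were 0, 2 and 2 members, and 2175, 1845 and 3208 of all genes. DESeq2 called 0, 0 and 2, and limma none. The 2 that DESeq2 called over both media were Krt14 (log2 0.44, SE 0.148, edgeR adjusted p = 0.0790) and Krt17 (log2 0.43, SE 0.147, edgeR adjusted p = 0.0890), both toward higher levels in KO.

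The luminal-to-basal ratio ordered the labels within each medium. With DHT it was 0.968, 0.847 and 0.896 in WT libraries, 1.17, 1.25 and 1.22 in KO and 1.55, 1.65 and 1.71 in HET libraries. Without DHT it was 0.928, 0.731 and 0.965 in WT, 1.11, 1.10 and 0.990 in KO and 1.40, 1.55 and 1.29 in HET libraries. No 2 labels overlapped in either medium, and WT was lowest and HET highest in both. A shift common to all genes of a library, such as that in WT plus DHT replicate 1, cancels in a ratio within the library. The log2 difference between HET and WT was 0.86 with DHT (pooled SD 0.0847) and 0.70 without (pooled SD 0.180), and that between KO and WT was 0.43 (pooled SD 0.0779) and 0.30 (pooled SD 0.167).

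With all members in the ratio, the difference of HET from WT was smaller and that of KO from WT was near 0. The ratio of 5 simple to 5 basal keratins was 1.41 to 1.56 in WT, 1.43 to 1.48 in KO and 1.82 to 1.93 in HET libraries with DHT. Over both media its log2 difference from WT was 0.33 in HET and -0.021 in KO, against 0.78 and 0.36 for the ratio of 4 genes. Krt19 and Krt15, which the 4-gene ratio leaves out, had the highest organoid medians among the simple and the basal members. Krt8 over Krt5 alone had the order of the 4-gene ratio, at 0.433 to 0.477 in WT, 0.547 to 0.575 in KO and 0.705 to 0.768 in HET libraries with DHT.

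**Figure D4:**
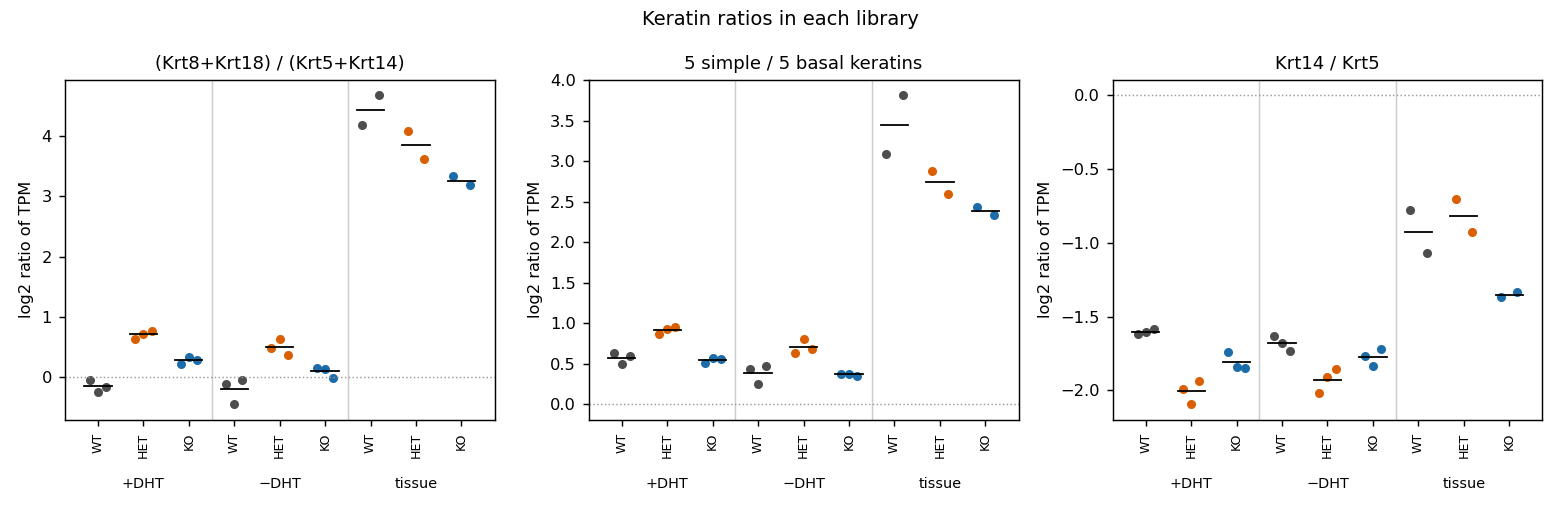
Keratin ratios in each library on a log2 scale of TPM: Krt8 plus Krt18 over Krt5 plus Krt14 (left), all 5 simple over all 5 basal members (middle), and Krt14 over Krt5 (right). Each point is 1 library and the bar is the group mean; in organoids the left ratio runs from WT through KO to HET in both media, and in tissue from KO through HET to WT.

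The basal pair itself was unequal between labels. Krt14 per Krt5 was 0.326 to 0.333 in WT, 0.278 to 0.300 in KO and 0.234 to 0.261 in HET libraries with DHT, again without overlap. Without DHT it was 0.301 to 0.322 in WT, 0.281 to 0.304 in KO and 0.247 to 0.277 in HET libraries, where WT and KO overlapped. Krt18 per Krt8 was close in all: 1.60 to 1.69 in WT, 1.71 to 1.85 in KO and 1.76 to 1.86 in HET with DHT, and 1.54 to 1.84 over the labels without DHT.

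Tissue ran in another order than organoids. The luminal-to-basal ratio was 18.3 and 25.7 for the WT label, 17.1 and 12.3 for HET, and 10.1 and 9.13 for KO, so that WT was highest and KO lowest, with no overlap. The higher value of WT and of HET each came from the library with seminal vesicle RNA. Without these 2 libraries the single values were 18.3 for WT and 12.3 for HET, beside the KO pair. In tissue the ratio of 5 simple to 5 basal keratins had the same order without overlap. Krt8 over Krt5 did not separate WT from HET, which overlapped with a log2 difference of HET from WT of 0.051. By Krt8 over Krt5, KO was still below both, by log2 -0.74 from WT and -0.79 from HET, without overlap. In the KO tissue libraries Krt5 was at 162 and 171 TPM, against 70.3 and 24.5 TPM for the WT label and 66.5 and 145 TPM for HET. In edgeR no member passed in HET against WT, KO against WT or KO against HET tissue, where 0% of 16753 genes passed in each. At an unadjusted p under 0.05 there were 0, 1 and 0 members, and the 1 was Krt5 in KO against WT (log2 1.72, SE 0.598, edgeR adjusted p = 1). Of all genes, 457, 321 and 97 had an unadjusted p under 0.05 in edgeR. DESeq2 and limma also called no member, while DESeq2 called 10, 25 and 10 of all genes.

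DHT withdrawal asks whether keratins depend on the androgen in the medium. None of the 10 members passed in WT, HET or KO organoids or in the average of the 3, in edgeR, DESeq2 or limma. The share of all genes that passed in edgeR was 1.30%, 0.707%, 0.557% and 4.96%. No member had an unadjusted p under 0.05 in edgeR in any of the 4, where 1245, 1295, 1085 and 2378 of all genes did. Of 15 luminal markers other than keratins tested, 3 fell and none rose in the average (20%, median log2 -0.11), and of 20 basal markers other than keratins 2 rose and 2 fell (20%, median 0.06), against a median of 0.02 for all genes. Among the luminal falls, the claudin Cldn10 fell by 1.44 on the log2 scale (SE 0.114, edgeR adjusted p = 1.18e-06), and the surface antigen Psca fell by 0.76 (SE 0.0779, edgeR adjusted p = 1.56e-05).

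The intervals bound the keratin response. The average log2 change was 0.04 for Krt8, 0.03 for Krt18 (95% interval -0.12 to 0.19) and -0.09 for Krt19 (-0.28 to 0.11). For the basal pair it was 0.19 for Krt5 (-0.03 to 0.42) and 0.24 for Krt14 (-0.01 to 0.50), and for Krt17 it was 0.22 (-0.03 to 0.48). The luminal-to-basal ratio had a mean log2 change of -0.15 (pooled SD 0.123). It was -0.06 in WT, -0.22 in HET and -0.18 in KO, where the 3 libraries without DHT were all below the 3 with it. The ratio of 5 simple to 5 basal keratins changed by -0.19 in WT (pooled SD 0.0986), -0.21 in HET (pooled SD 0.0687) and -0.18 in KO (pooled SD 0.0234), and by this ratio the libraries without DHT were all below those with it in each label. The differences between the withdrawal responses of HET and WT, KO and WT, and KO and HET had no member past the threshold, and 0% of all genes passed in edgeR. No member had an unadjusted p under 0.05 there in edgeR, DESeq2 or limma, while 433, 417 and 151 of all genes did in edgeR and DESeq2 called 6, 6 and 1.

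Libraries without DHT were spread widely in keratin level and in the mitochondrial share of reads. Over 18 organoid libraries all 10 members had negative Pearson correlations between log2 CPM, read counts scaled to library size, and log2 mitochondrial share, from -0.26 for Krt18 to -0.88 for Krt19. These values describe libraries that share groups and media and carry no test. They were not taken for all genes, so they do not set the members apart from other genes. In HET libraries without DHT the shares were 9.43%, 4.54% and 2.42%, and Krt5 was at 767, 934 and 1394 TPM in the same libraries. The KO libraries without DHT had shares of 10.01%, 4.17% and 2.61% and Krt5 at 941, 1304 and 1755 TPM. In both labels Krt5 was higher where the share was lower. The WT libraries without DHT had shares of 2.87%, 3.10% and 5.06% and Krt5 at 1383, 1845 and 1178 TPM, so the lowest share did not go with the highest level.

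With the mitochondrial share as a covariate, 7 members passed for withdrawal averaged over labels, where the fit without it called none. All 7 were higher without DHT: Krt14 (log2 0.38, edgeR adjusted p = 0.00175), Krt17 (0.36, edgeR adjusted p = 0.00270), Krt5 (0.33, edgeR adjusted p = 0.00168), Krt15 (0.24, edgeR adjusted p = 0.00429), Krt4 (0.22, edgeR adjusted p = 0.0114), Krt8 (0.16, edgeR adjusted p = 0.0152) and Krt18 (0.13, edgeR adjusted p = 0.0308). That covariate raised the count for all genes too, from 765 to 3904. In HET against WT over both media it gave 7 members, with Krt18 (0.43), Krt8 (0.38) and Krt15 (0.22) higher and Krt14 (-0.57), Krt6a (-0.34), Krt17 (-0.33) and Krt5 (-0.27) lower. There the count for all 15427 genes rose from 2418 to 4617. In KO against WT over both media the covariate gave Krt8 (0.35), Krt18 (0.33) and Krt15 (0.45), and the count for all genes rose from 1502 to 2857. Whether the share reflects RNA quality or the state of the cells was not tested. The ratio of luminal to basal keratins had a Pearson correlation of 0.23 with the same share.

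**Figure D5:**
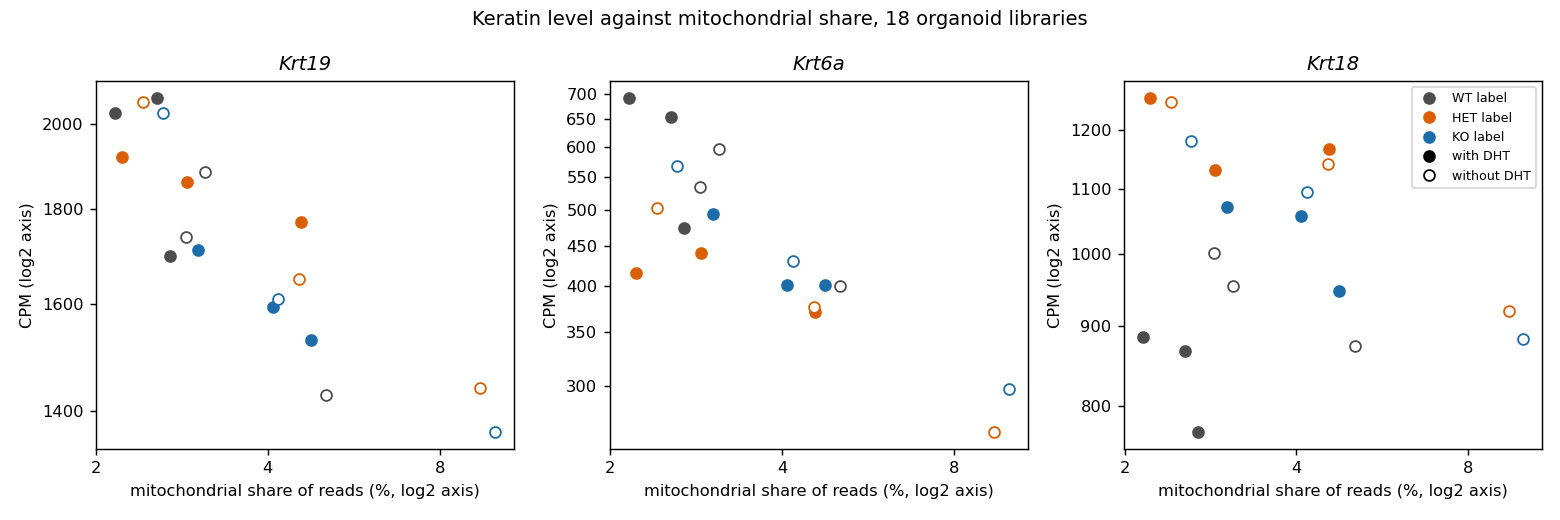
Level of Krt19, Krt6a and Krt18 in CPM against the share of reads on mitochondrial genes, both on log2 axes, in 18 organoid libraries. Filled points are libraries with DHT and open points without; Krt19 and Krt6a fall as the share rises, with Pearson correlations of -0.88 and -0.86, and Krt18 has -0.26.

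Some members moved closely together across the organoid libraries. Krt8 and Krt18, the obligate partners of simple epithelium, had a Spearman rho of 0.94 over 18 libraries, and Krt19 and Krt7 also had 0.94. Krt5 and Krt14 had 0.97. Between the luminal and the basal pair the values ran from -0.21 for Krt18 with Krt14 to 0.13 for Krt8 with Krt5. The other simple keratins were less apart from both pairs: Krt7 had 0.68 with Krt8 and 0.49 with Krt5, and Krt19 had 0.57 and 0.44. Krt15, basal by name, had 0.71 with Krt8 and 0.49 with Krt5. These correlations share library, depth and group, and are given as descriptions. Of the 9927 genes that averaged 5 CPM or more in organoids, those most like Krt8 were the epithelial serine protease Hpn (hepsin, rho 0.96), Gtse1 (0.96), the tubulin Tubb5 (0.96), Cdk2ap2 (0.95) and the replication factor subunit Rfc2 (0.95). Those most like Krt5 were the membrane skeleton protein adducin, Add1 (0.97), the cell cycle inhibitor locus Cdkn2a (0.96), the glypican Gpc1 (0.96), Ptk7 (0.95) and Usp20 (0.95).

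Some genes that work with keratins differed between labels in organoids with DHT, where 7.51% of all genes passed in HET against WT and 4.11% in KO against WT. Of 20 anchors and crosslinkers, 1 rose and 2 fell in HET (15%): the plaque protein Pkp2 rose (log2 0.47, edgeR adjusted p = 0.00154), and Col17a1 (-0.54, edgeR adjusted p = 0.00770) and Flg (-1.36, edgeR adjusted p = 0.00930) fell. Of 20 basal markers other than keratins, 3 fell and none rose (15%), namely the desmosomal cadherins Dsg3 (-1.23) and Dsc3 (-1.45) and again Col17a1. In KO against WT, Dsg3 fell (-0.75) and no anchor passed; 2 of 20 basal markers fell and 2 rose (20%). Of 24 regulators, Notch2 (-0.50) and Gata2 (-0.63) fell in HET, and Gata2 alone (-1.54) in KO, where none rose. These shares of 8.33% and 4.17% are near those of all genes. Of 16 squamous genes tested, 4 fell in HET and none rose (25%), led by Sprr2h (-1.19) and Sprr1b (-1.41), and 1 fell in KO (6.25%).

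Of 18 other keratins tested with DHT, 3 rose and 3 fell in HET against WT (33.3%), and 3 rose and 4 fell in KO against WT (38.9%). Krt16, the type I wound keratin, fell in both (-1.14 in HET, -0.92 in KO), and Krt23 (1.01 and 1.03) and the hair-type keratin Krt39 (1.49 and 1.74) rose in both. Krt20, a keratin of differentiated gut and bladder epithelium, fell in HET (-1.01) and fell on DHT withdrawal averaged over labels (-0.88, edgeR adjusted p = 7.02e-05), while Krt79 rose on withdrawal (0.68, edgeR adjusted p = 0.0138). The HET and KO comparisons share the WT libraries. Among 90 tested genes within 2 Mb of Brca1 that were not keratins, 4.44% passed in HET against WT with DHT and 1.11% in KO against WT, below the 7.51% and 4.11% of all genes. Over both media 17.8% passed in HET against WT (8 higher, 8 lower), above the 15.7% of all genes, and 7.78% in KO against WT, below the 9.74%.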

How the data were processed

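Total RNA was sequenced from 18 prostate organoid and 6 prostate tissue libraries. The deposited files give estimated counts and TPM per mouse Ensembl transcript, with Salmon 0.13.1 named in the submitters' processing notes. The build in those notes is hg38, which does not match the mouse identifiers. Index, trimming and strandedness are not given in the sources used here, so reads of genes that overlap on opposite strands cannot be told apart.

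Estimated counts and TPM were summed per gene with GENCODE mouse release 21 (GRCm38), and counts were rounded. Of 116945 transcripts per library, 922 had no gene there and were left out. Counts were tested in R 4.3.3 with edgeR 4.0.16 (TMM, filterByExpr by group, quasi-likelihood F-test) with Benjamini-Hochberg adjustment across every gene of a fit and a threshold of 0.05. The 18 organoid libraries were fitted together (12 residual degrees of freedom), the 6 tissue libraries together (3), and the 9 organoid libraries with DHT with the 6 tissue libraries (9). Intervals are 95% and use the degrees of freedom of each gene's test. Ratios were taken in Python 3.11.15 from TPM and carry no test. DESeq2 1.42.0 and limma 3.58.1 on log2(TPM + 0.1) were alternatives, and an adjusted p that DESeq2 left undefined was kept so. Code was tested on simulated data.

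Named genes are all 10 members, plus from each list up to 4 genes past the threshold with the lowest p, and the 5 genes most like Krt8 and Krt5 by Spearman rho. Members and lists were chosen with earlier results of these data known. Nothing in the labels says that replicates are separate animals, so the p-values speak only of the spread among these libraries, which may be technical. No 2 libraries held identical values. Most same-numbered organoid libraries did not deviate together: 8 of 27 pair correlations exceeded 0.1 (range -0.52 to 0.69). In KO against HET without DHT all 3 did (0.61, 0.23 and 0.69), so libraries of these groups may share an unnamed source of spread.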

Additional observations from a re-analysis of the deposited data

How the results depend on the processing

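Members were recounted under each alternative, and the value is the number of the 10 past the threshold. The comparisons not listed for a setting kept the count of the report or stayed within 1.5 times of it. DESeq2 gave 1 for HET against WT without DHT, 5 over both media, and 2 for KO against HET over both media. It called 1686, 3006 and 2010 of all genes there, where edgeR called 1205, 2418 and 1404. Without a low-count filter HET against WT with DHT gave 0. Limma on log2(TPM + 0.1) gave 0 there, and 1 over both media for both HET and KO against WT. The replicate block gave 1 for HET against WT without DHT, 5 over both media and 1 for KO against HET over both media, and 0 for KO against HET without DHT, where numbers paired the samples. Fitting the groups compared alone gave 2 for KO against HET with DHT, where the count for all genes rose from 546 to 1238. With the mitochondrial share as a covariate the counts were 3 for withdrawal in WT and 7 for its average. That covariate gave 4 with DHT, 5 without and 7 over both media for HET against WT, 3 in each for KO against WT, and 2, 3 and 4 for KO against HET. The covariate also raised the counts for all genes, to 1960 for withdrawal in WT and 3904 for its average. In the same order of settings, 3229, 2529 and 4617 genes passed for HET against WT. For KO against WT 1684, 1829 and 2857 passed, and for KO against HET 1752, 1454 and 3492. Of the alternatives chosen after seeing the data, coding transcripts alone gave 1 for HET against WT with DHT. Dropping WT plus DHT replicate 1 with HET and KO minus DHT replicate 1, which had the fewest reads, gave 1 for HET against WT without DHT and 6 over both media, 1 in each setting for KO against WT, and 2 for KO against HET over both media. The cause of these changes was not tested.

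Leaving out 1 library in turn gave 0 to 1 member for HET against WT with DHT, 0 to 2 without, 2 to 5 over both media, 0 to 2 over both media for KO against WT and for KO against HET, 0 to 1 for HET against WT tissue, and 6 to 8 for organoids against tissue. It gave 0 in each other comparison. The log2 luminal-to-basal difference then ranged from 0.72 to 0.82 for HET against WT, 0.30 to 0.40 for KO against WT and -0.45 to -0.38 for KO against HET over both media, from -0.18 to -0.11 for withdrawal, and from -3.65 to -3.49 for organoids against tissue. Krt18 over Krt8 ranged from 0.44 to 0.91, Krt14 over Krt5 from -0.82 to -0.73 and type I over type II from -1.35 to -1.21 between organoids and tissue. With 5 simple over 5 basal keratins the difference was 0.33 for HET against WT, -0.021 for KO against WT and -2.18 for organoids against tissue, and with Krt8 over Krt5 it was -4.15 for organoids against tissue. In CPM, Krt14 over Krt5 differed by -0.64 there. With 2 libraries per tissue group, tissue calls have little power.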
